A study of Homo sapiens with 18 samples.

Results

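The genes described here are 10 tubulin genes, 4 alpha (TUBA1A, TUBA1B, TUBA1C and TUBA4A), 5 beta (TUBB, TUBB2A, TUBB2B, TUBB3 and TUBB6) and 1 gamma (TUBG1), taken by their symbols from tables of 23686 genes. All 10 were present in the tables. They were chosen by symbol from a list drawn up with the dose responses of these same libraries in view, so their changes with dose are a description, given without a test. The tables hold 13 further tubulin genes, and 186 genes of microtubule and actin biology in 10 lists (those 13 among them) were analysed beside the members. The lists too were drawn up with earlier results of these data known, so their counts and p-values are not independent evidence.

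RNA was sequenced from OCI-Ly1 and TMD8, established human cell lines derived from diffuse large B-cell lymphoma. Each line received 0.01% DMSO, the vehicle, or JIB-04 at 150 nM or 500 nM; JIB-04 is a small molecule that inhibits Jumonji-domain histone demethylases. There were 3 libraries in each of the 6 groups, called technical replicates in the labels, which do not state separate cultures, so every p-value below covers only the spread between libraries. The medium was IMDM for OCI-Ly1 but RPMI for TMD8, so line and medium cannot be told apart, and no treatment time is given. The estimated counts of a library summed to between 17579732 and 32651115 for OCI-Ly1, and to between 9550092 and 20509500 for TMD8. All 6 B-cell markers checked were at 21.3 TPM (transcripts per 1000000, a level scaled to transcript length) or more in every library, while in DMSO T-cell markers summed to 26.7 to 28.9 TPM in OCI-Ly1 and 1.10 to 1.31 in TMD8, epithelial markers to 14.9 to 17.4 and 7.39 to 8.50, neuron markers to 5.86 to 5.98 and 0.0527 to 0.0888, and myeloid markers to at most 0.596.

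Microtubules are polymers of alpha- and beta-tubulin heterodimers, and gamma-tubulin sits in the ring complex that starts them. Each subunit is encoded by several genes, the isotypes, whose proteins are very alike over the body of the molecule and differ most in the short acidic tail at the C-terminus. Tubulin mRNA is under a feedback called autoregulation: when free tubulin dimer is plentiful, the factor TTC5 recognises the first residues of the growing alpha or beta chain on the ribosome and, through SCAPER, brings the CCR4-NOT deadenylase to the mRNA.

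Autoregulation acts on the start of the coding sequence, so that start is shown for the 10 genes, from the GENCODE release 29 transcripts on GRCh38. The first 12 coding bases, 4 codons, are in capitals. TUBA1A, TUBA1B and TUBA1C share the same first 30 coding bases, and TUBB3 and TUBB6 share the same 12 capitals. In the alpha genes the capitals encode methionine, arginine, glutamate and cysteine, and in the beta genes methionine, arginine, glutamate and isoleucine, the residues known as the autoregulation motif. TUBG1 starts differently.
TUBA1A, TUBA1B and TUBA1C: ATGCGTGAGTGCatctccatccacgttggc
TUBA4A: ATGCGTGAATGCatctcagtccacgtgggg
TUBB: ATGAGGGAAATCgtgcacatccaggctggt
TUBB2A: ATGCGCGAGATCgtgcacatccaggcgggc
TUBB2B: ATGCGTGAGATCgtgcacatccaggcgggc
TUBB3: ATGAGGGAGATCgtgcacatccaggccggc
TUBB6: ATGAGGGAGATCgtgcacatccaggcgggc
TUBG1: ATGCCGAGGGAAatcatcaccctacagttg

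The last 45 coding bases before the stop codon encode the acidic tail, and those of the beta genes are shown to compare how alike they are. TUBB2A and TUBB2B have the same letters at 44 of 45, whereas TUBB and TUBB2A share 28 and TUBB3 and TUBB6 share 17.
TUBB: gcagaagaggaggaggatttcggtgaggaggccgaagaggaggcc
TUBB2A: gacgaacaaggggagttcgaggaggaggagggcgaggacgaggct
TUBB2B: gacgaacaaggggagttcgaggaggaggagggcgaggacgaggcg
TUBB3: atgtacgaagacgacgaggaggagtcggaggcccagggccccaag
TUBB6: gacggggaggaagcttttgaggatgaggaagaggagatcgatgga

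Over the whole coding sequence, TUBB2A and TUBB2B were identical at 1311 of 1335 aligned positions (98.2%), TUBA1A and TUBA1B at 97.2% and TUBA1B and TUBA1C at 96.8%. Of all 31-base words in a gene's annotated transcripts, the share also found in another of the 10 genes was 63.7% for TUBB2A, 50.1% for TUBB2B, 49.4% for TUBA1B, 29.9% for TUBA1A and 27.2% for TUBA1C. It was 8.9% for TUBB3, 3.1% for TUBB6, 0.2% for TUBB, 0.1% for TUBA4A and 0 for TUBG1. Counting words found in any other gene, the share was 25.2% for TUBB6, 26.4% for TUBA4A, 32.9% for TUBB, 41.5% for TUBG1 and 49.7% for TUBB3, and 30.6% to 70.4% for the rest. The program that made the estimated counts shares such reads out between genes. The TUBB estimate was a whole number, within 0.05, in 18 of 18 libraries and that of TUBB6 in 17, against 4 or fewer for each of the other 8 genes. Values of TUBB2A against TUBB2B, and of TUBA1A, TUBA1B and TUBA1C against each other, are therefore uncertain, and their sums are given too. Those of TUBA4A and TUBG1, whole in 0 of 18 libraries, and TUBB3 share reads with other genes too. TUBB3 also overlaps annotated transcripts that join it to its neighbour MC1R.

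In DMSO, both lines carried mostly TUBA1B among the alpha mRNAs and TUBB among the beta mRNAs, but they differed in the minor isotypes. Levels are compared between genes only in TPM, since it takes transcript length into account. In OCI-Ly1, the mean TPM of 3 libraries ranked TUBA1B first (2929 ± 81.5, SD) and TUBB second (1279 ± 10.5). TUBA1A followed at 282 ± 3.32, then TUBA1C at 220 ± 14.2, TUBA4A at 87.2 ± 3.82 and TUBG1 at 61.9 ± 4.37. TUBB3 (36.4 ± 0.567) and TUBB2A (27.9 ± 0.141) came next, TUBB6 was at 2.10 ± 0.234 and TUBB2B at 0.269 ± 0.0486. No 2 neighbours in this order overlapped between libraries.

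In TMD8, TUBA1B (600 ± 77.8 TPM, SD, n = 3) and TUBB (540 ± 69.8) overlapped between libraries and were not separated. TUBB6, a class V beta-tubulin scarce in OCI-Ly1, came next at 132 ± 15.3, ahead of TUBA1C at 102 ± 13.0 without overlap. TUBG1 (32.7 ± 5.68) and TUBA4A (30.7 ± 3.998) overlapped, and TUBA1A stood at 22.6 ± 3.48. TUBB2B was at 15.9 ± 1.90, TUBB2A at 11.9 ± 1.27 and TUBB3 lowest at 4.69 ± 0.581.

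**Figure D1:**
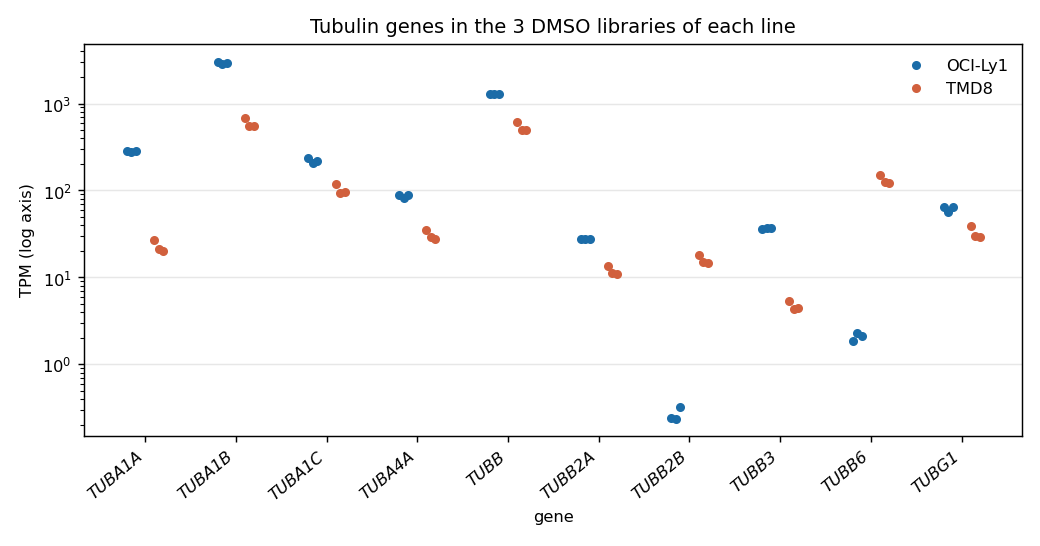
TPM of the 10 tubulin genes in the 3 DMSO libraries of each line, on a log axis; each point is a library. TUBA1B and TUBB were highest in both lines, TUBB2B was near 0.269 in OCI-Ly1 and 15.9 in TMD8, and TUBB6 near 2.10 and 132.

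The untreated lines were compared on TMM-scaled CPM (counts per 1000000) in a fit of all 18 libraries with edgeR's quasi-likelihood test, over 16604 genes. The members were chosen with earlier results of these libraries known, so p-values of members are not independent evidence. TUBB6 was at 2.42, 3.04 and 2.63 CPM in OCI-Ly1 and at 344, 324 and 321 in TMD8, a log2 difference (OCI-Ly1 minus TMD8) of -6.95 ± 0.09 (SE, adjusted p = 1.07e-29). TUBB2B was at 0.345, 0.338 and 0.465 CPM against 47.0, 43.6 and 44.1, a log2 difference of -6.83 ± 0.16 (adjusted p = 1.03e-23). These were the members higher in TMD8, with no overlap between the lines. In the OCI-Ly1 DMSO libraries TUBB2B had 6.22 to 11.8 estimated counts, so the size and p of its difference rest on very few counts. The row passed the count filter through groups where it was higher. On log2(TPM + 1) the TUBB2B difference was -3.73.

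Going the other way, TUBA1A was at 395, 389 and 372 CPM in OCI-Ly1 and 65.9, 58.4 and 57.5 in TMD8 (log2 difference 2.67 ± 0.06, adjusted p = 9.42e-25, edgeR). TUBB3, the beta isotype best known from neurons, was at 45.3, 46.5 and 44.8 CPM against 12.1, 10.8 and 11.4 (1.99 ± 0.09, adjusted p = 5.00e-18). TUBA1B was also higher in OCI-Ly1 (1.32 ± 0.06, adjusted p = 1.53e-17), as were TUBA4A (0.55 ± 0.06), TUBB (0.28 ± 0.05), TUBB2A (0.26 ± 0.07) and TUBA1C. The TUBA1C difference was small, 0.14 ± 0.06 with adjusted p = 0.0436, and was not called without OCI-Ly1 DMSO replicate 1 (0.09) or without TMD8 DMSO replicate 2 (0.11) or 3 (0.13). On log2(TPM + 1), where the median of all genes was shifted by 0.61, the differences were larger, at 1.10 for TUBA1C, 1.25 for TUBB, 1.17 for TUBB2A, 1.48 for TUBA4A and 2.29 for TUBA1B.

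TUBG1 did not pass the test (log2 difference -0.03 ± 0.06, adjusted p = 0.616, edgeR), and its sign was reversed to 0.91 on log2(TPM + 1). In all, 7 of 10 members were higher in OCI-Ly1 and 2 lower, where 37.8% and 39% of all tested genes were. TUBB2A and TUBB2B summed were 1.15 lower on the log2 scale in OCI-Ly1 (-1.15 ± 0.06, adjusted p = 5.72e-16), whereas their summed TPM was 28.2 ± 0.0958 (SD, n = 3) in OCI-Ly1 and 27.9 ± 3.16 in TMD8, which overlapped. The 4 alpha members summed were higher in OCI-Ly1 by 1.28 ± 0.06 (adjusted p = 2.73e-17), while the 5 beta members summed did not pass the test (0.05 ± 0.05, adjusted p = 0.414). In TPM both sums were higher in OCI-Ly1 without overlap, the alpha members at 3518 ± 102 (SD) against 756 ± 98.2 and the beta members at 1346 ± 9.84 against 704 ± 88.7, so the level beta sum holds on CPM only. Among members, the largest CPM differences between the lines were those of TUBB6 and TUBB2B. On log2(TPM + 1) these were -5.42 and -3.73, with TUBA1A close in size at 3.59 and TUBB3 at 2.72.

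The question put to the treated libraries was how each isotype's mRNA differed at each dose of JIB-04. At 500 nM TUBA1B, TUBA1C, TUBA4A, TUBB and TUBG1 were lower in both lines. TUBB2A, TUBB2B and TUBB6 were higher in OCI-Ly1 and lower in TMD8. TUBB3 was higher in TMD8 in CPM, while in TPM its libraries overlapped DMSO. At 150 nM, TMD8 already had lower levels of all 10 genes, and OCI-Ly1 differed little from DMSO. Markers of other cell types moved with dose as well: the sum of 4 T-cell markers went from 26.7 to 28.9 TPM with DMSO to 11.9 to 13.8 with 500 nM in OCI-Ly1, and 3 fibroblast markers from 0.492 to 0.599 to 2.73 to 2.96 in TMD8. These sums rest on few genes. Only 2 of the 4 T-cell markers were at 1 TPM or more in every DMSO library of OCI-Ly1. In TMD8 with 500 nM, 1 of the 3 fibroblast markers was. The sum of the 6 B-cell markers in TMD8 was 801.2 to 932.7 TPM with DMSO and 538.2 to 618.2 with 500 nM. The part of these shifts in the tubulin values was not tested. In bulk RNA, fewer cells of a kind and less RNA per cell cannot be told apart.

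Among the alpha genes, TUBA1B, the most abundant in both lines, was at 3901, 3743 and 3646 CPM with DMSO in OCI-Ly1, at 3690, 3521 and 3507 with 150 nM and at 2092, 2219 and 2201 with 500 nM. The 500 nM libraries lay below all the others, and the 150 nM libraries overlapped DMSO. The log2 fold changes were -0.07 ± 0.04 and -0.79 ± 0.04 (SE) at the lower and the higher dose. In TMD8 the TUBA1B libraries were at 1450, 1329 and 1362 CPM with DMSO, 947, 885 and 802 with 150 nM and 624, 622 and 622 with 500 nM. Here the 3 groups did not overlap, with log2 fold changes of -0.65 ± 0.06 and -1.15 ± 0.06.

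TUBA1C, an alpha gene with the lowest mean change of the members, was at 265, 236 and 242 CPM with DMSO in OCI-Ly1, 228, 215 and 224 with 150 nM and 117, 119 and 115 with 500 nM. TMD8 had TUBA1C at 216, 197 and 205, then 130, 124 and 106, then 77.0, 75.4 and 80.4 CPM. The 500 nM group lay lowest in both lines without overlap. Its log2 fold changes were -0.16 ± 0.05 and -1.08 ± 0.05 in OCI-Ly1, against -0.78 ± 0.06 and -1.41 ± 0.07 for TMD8. The first of these was -0.10 without OCI-Ly1 DMSO replicate 1.

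TUBA1A, abundant in developing neurons, was the alpha gene that kept most of its level. It was at 409, 405 and 388 CPM with DMSO in OCI-Ly1, 415, 391 and 388 with 150 nM and 313, 320 and 325 with 500 nM, with log2 fold changes of -0.01 ± 0.05 and -0.33 ± 0.05. TMD8 had TUBA1A at 62.4, 56.0 and 55.2 CPM, then 49.9, 48.3 and 48.9, then 55.6, 58.4 and 54.0. There the 150 nM libraries were lowest (-0.24 ± 0.06) and the 500 nM libraries overlapped DMSO (-0.04 ± 0.06, which was 0.05 with library size alone and -0.59 on log2(TPM + 1)). The mean effective length behind the TUBA1A rows was longer in TMD8 by 10.1% at 150 nM and 14.8% at 500 nM, against 1.06% or less in OCI-Ly1 and for the other 8 members checked, TUBB2B being too low to check. Reads moving between transcripts or between the 3 TUBA1 genes were not tested, and the 3 rows summed changed by -0.07 ± 0.04 and -0.76 ± 0.04 in OCI-Ly1 and by -0.65 ± 0.06 and -1.12 ± 0.06 in TMD8.

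TUBA4A, an alpha gene whose protein lacks the C-terminal tyrosine of other alpha-tubulins, was at 95.3, 90.0 and 93.1 CPM with DMSO in OCI-Ly1 and at 62.8, 70.0 and 67.2 with 500 nM. TMD8 libraries stood at 61.5, 57.4 and 56.6 CPM with DMSO, 40.3, 42.5 and 37.5 with 150 nM and 36.9, 37.9 and 40.9 with 500 nM. The 2 treated TMD8 groups overlapped each other, both below DMSO. Its log2 fold changes were -0.12 ± 0.06 and -0.48 ± 0.06 in OCI-Ly1, against -0.55 ± 0.06 and -0.60 ± 0.06 for TMD8.

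Among the beta genes, TUBB, the main isotype of dividing cells, was at 2438, 2438 and 2323 CPM with DMSO in OCI-Ly1, 2353, 2235 and 2368 with 150 nM and 1347, 1403 and 1398 with 500 nM. TMD8 had TUBB at 1901, 1742 and 1794, then 1313, 1252 and 1176, then 927, 933 and 957 CPM. The 500 nM group was the lowest in each line and did not overlap the others. The log2 fold changes were -0.05 ± 0.04 and -0.80 ± 0.04 in OCI-Ly1, against -0.54 ± 0.05 and -0.95 ± 0.05 for TMD8.

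In OCI-Ly1, TUBB2A was the most abundant member that was higher with dose. Its libraries were at 33.2, 33.6 and 31.8 CPM with DMSO, 39.6, 39.8 and 38.1 with 150 nM and 58.9, 62.9 and 57.0 with 500 nM, each group above the one before it. The log2 fold changes were 0.25 ± 0.07 and 0.86 ± 0.06. In TMD8 the order of the groups was the opposite, at 25.8, 24.9 and 24.9 CPM, then 22.5, 19.8 and 19.0, then 17.6, 16.6 and 16.7, with -0.31 ± 0.07 and -0.57 ± 0.08.

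TUBB2B, its near-identical neighbour on chromosome 6, was close to undetected in OCI-Ly1 with DMSO. Its estimated counts there were 6.22 to 11.8 per library, and 231 to 342 at 500 nM. In CPM these were 0.357, 0.352 and 0.484 with DMSO, 0.969, 0.495 and 0.851 with 150 nM and 10.2, 9.56 and 7.61 with 500 nM, a log2 fold change of 4.49 ± 0.25 at 500 nM. The row passed the count filter in OCI-Ly1 only through its 500 nM libraries, and on log2(TPM + 1) the change was 2.59. In TMD8 TUBB2B was at 44.5, 41.8 and 42.3 CPM, then 36.8, 36.3 and 35.2, then 30.1, 33.8 and 29.7, with log2 fold changes of -0.25 ± 0.06 and -0.46 ± 0.07.

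With the TUBB2A and TUBB2B rows summed, OCI-Ly1 was at 33.6, 34.0 and 32.3 CPM with DMSO, 40.6, 40.3 and 38.9 with 150 nM and 69.1, 72.5 and 64.6 with 500 nM. TMD8 was at 70.3, 66.7 and 67.2, then 59.3, 56.0 and 54.2, then 47.6, 50.4 and 46.3. The sum was higher by 1.05 ± 0.06 on the log2 scale at 500 nM in OCI-Ly1 and its log2 fold change was -0.50 ± 0.06 in TMD8, so the opposite directions did not depend on how reads were split between the pair. TUBB2B made up 0.955% ± 0.176 (SD, n = 3) of the summed TPM with DMSO in OCI-Ly1 and 10.7% ± 1.24 with 500 nM, and 57.2% ± 0.376 and 59.0% ± 2.23 in TMD8.

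TUBB3 was at 46.9, 48.5 and 46.7 CPM with DMSO in OCI-Ly1, 47.7, 44.2 and 44.1 with 150 nM and 46.4, 42.3 and 44.7 with 500 nM. The 500 nM libraries lay just below those with DMSO, with a log2 fold change of -0.09 ± 0.06 that was 0.04 on log2(TPM + 1). In TMD8 TUBB3 was at 11.4, 10.4 and 10.97 CPM, then 7.84, 9.81 and 9.87, then 15.2, 18.8 and 18.5. In CPM it was the only member with all 500 nM libraries above DMSO in TMD8 (0.67 ± 0.11), after a lower level at 150 nM (-0.24 ± 0.11, and -0.15 without TMD8 150 nM replicate 1). In TPM these TMD8 groups overlapped, at 5.36, 4.29 and 4.43 with DMSO and 4.69, 6.24 and 6.46 with 500 nM, and the change was 0.25 on log2(TPM + 1).

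TUBB6 was at 2.50, 3.17 and 2.74 CPM with DMSO in OCI-Ly1, 3.35, 3.22 and 2.93 with 150 nM and 5.04, 5.38 and 4.45 with 500 nM, so the line that nearly lacked it had more at the higher dose (0.83 ± 0.16). The change at 150 nM was 0.19 ± 0.17, and 0.11 without OCI-Ly1 DMSO replicate 1. TMD8 had far more TUBB6, at 326, 311 and 308 CPM, then 288, 284 and 255.6, then 231, 221 and 225. The log2 fold changes there were -0.19 ± 0.05, which was -0.11 without TMD8 150 nM replicate 3, and -0.48 ± 0.05.

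TUBG1, the gamma-tubulin of the ring complex, was at 94.3, 84.0 and 90.3 CPM with DMSO in OCI-Ly1, 81.6, 79.7 and 84.9 with 150 nM and 63.8, 65.2 and 64.3 with 500 nM. TMD8 had TUBG1 at 92.7, 80.9 and 79.6, then 66.3, 66.8 and 68.5, then 62.5, 57.5 and 58.4 CPM. At 500 nM its log2 fold change was -0.48 ± 0.06 in OCI-Ly1 and -0.50 ± 0.06 in TMD8, but -0.33 and -0.84 on log2(TPM + 1).

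**Figure D2:**
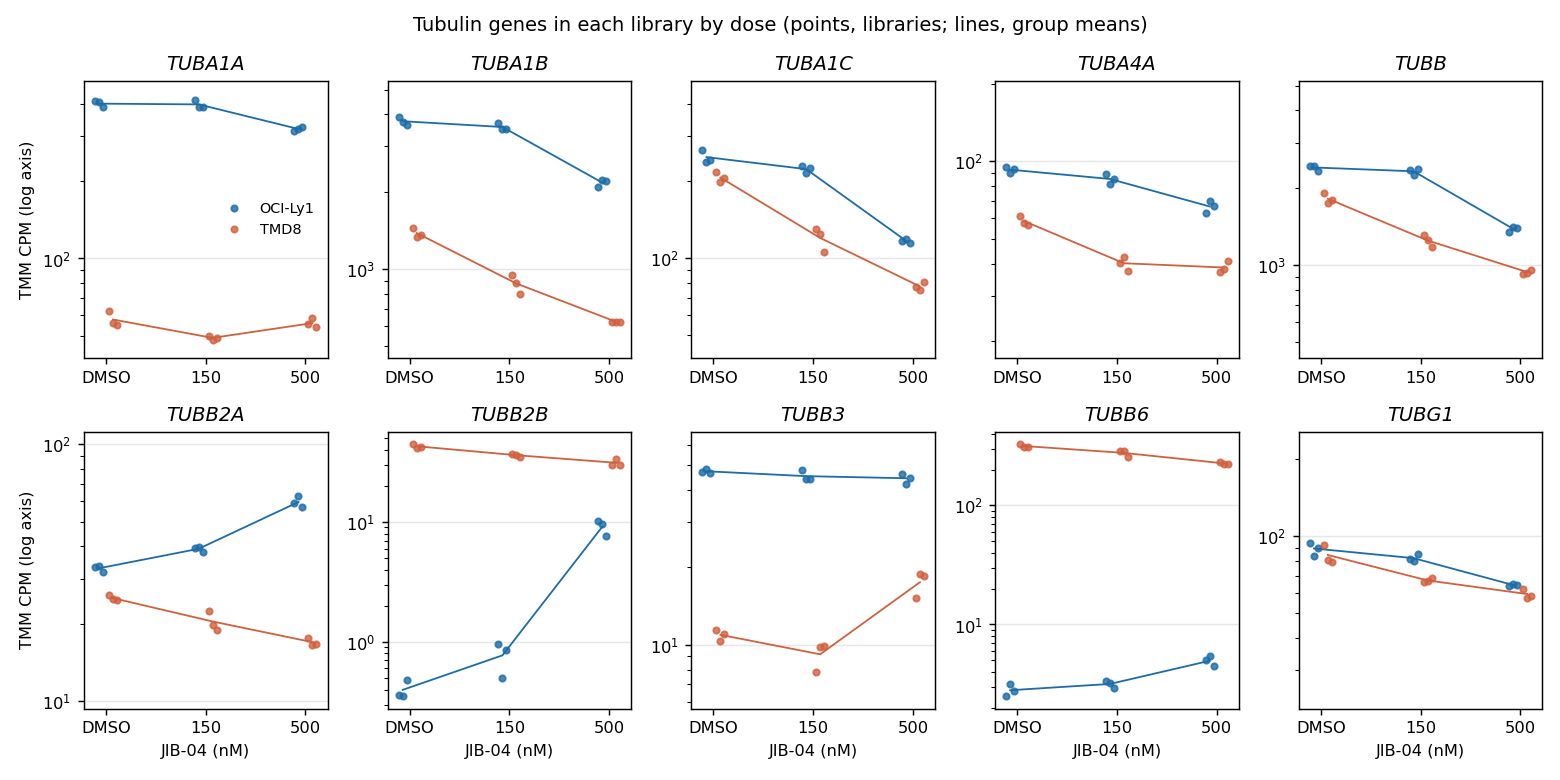
TMM-scaled CPM (log axis) of each tubulin gene in each library against JIB-04 dose, OCI-Ly1 in blue and TMD8 in orange; points are libraries and lines join the means of 3. TUBB2A, TUBB2B and TUBB6 slope up in OCI-Ly1 and down in TMD8, for example TUBB2A from 32.9 to 59.6 and from 25.2 to 17.0. The other genes but TUBB3 and TUBA1A slope down or stay level in both. TUBA1A in TMD8 dips from 57.9 with DMSO to 49.1 at 150 nM and is at 56.0 at 500 nM.

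Read against the whole table, the counts were as follows, and the rule chose the genes on these contrasts, so nothing is read from them. The threshold for a call was an adjusted p below 0.05, over all genes tested in that line. In OCI-Ly1 at 150 nM, 0 of 10 members were called by edgeR, 4 had an unadjusted p under 0.05 and DESeq2 called 1, where 0.748% of all genes were called higher and 0.141% lower. At 500 nM, 3 members were called higher and 6 lower in OCI-Ly1 (27.7% and 25.9% of all genes). In TMD8, 0 were called higher and 9 lower at 150 nM (19.2% and 25% of all genes), and 1 higher and 8 lower at 500 nM (29.9% and 30.7%). Between the doses, 3 were called higher and 6 lower at 500 nM than at 150 nM in OCI-Ly1 (25.1% and 21.1% of all genes), and 2 and 7 in TMD8 (13.7% and 15%). The median log2 fold change of the members at 500 nM was -0.40 in OCI-Ly1 and -0.53 in TMD8, and that of all genes -0.00 and 0.04.

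**Figure D3:**
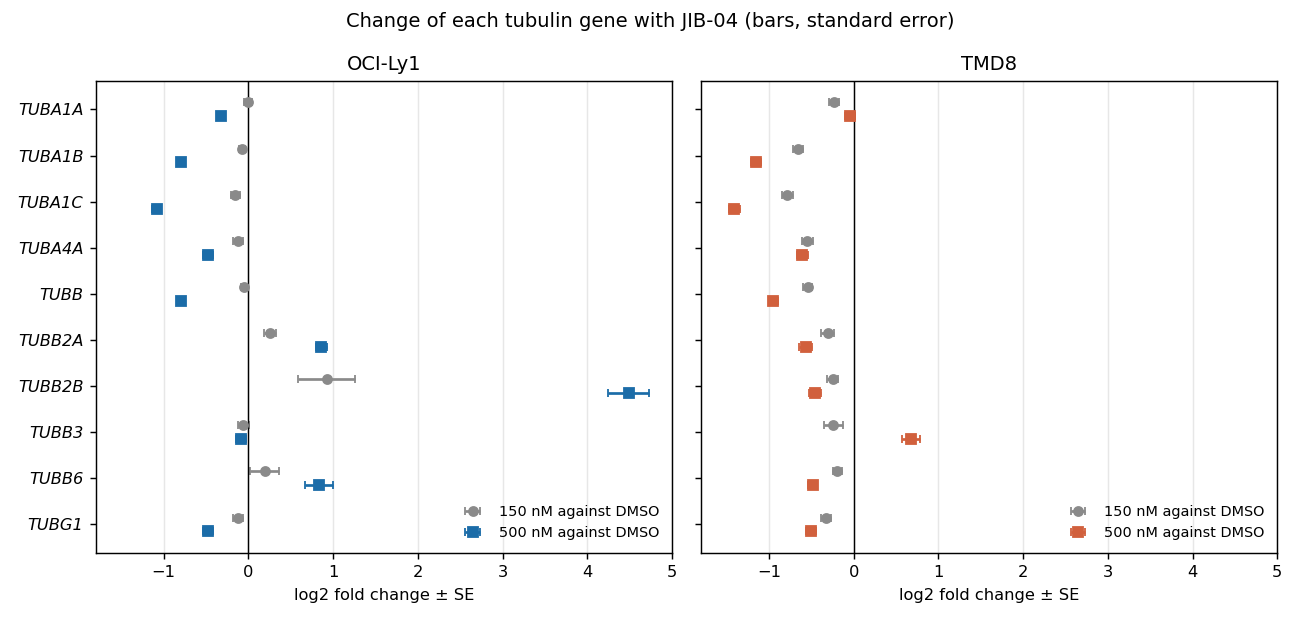
Log2 fold change against DMSO of each tubulin gene at 150 nM (grey circles) and 500 nM (coloured squares) in OCI-Ly1 and TMD8; bars are standard errors from the edgeR fit. TUBB2B in OCI-Ly1 stands far to the right at 4.49, and TUBA1C lies lowest in both lines at -1.08 and -1.41.

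The difference between the lines in the response, OCI-Ly1 minus TMD8, was described for the same genes in the fit of all 18 libraries. At 500 nM it was 4.97 for TUBB2B, 1.45 ± 0.10 for TUBB2A, 1.35 ± 0.13 for TUBB6 and -0.73 ± 0.12 for TUBB3 on the log2 scale. It was 0.39 for TUBA1B, 0.36 for TUBA1C, 0.18 for TUBB and 0.06 for TUBG1, and -0.25 for TUBA1A. On log2(TPM + 1) the values were 3.36 for TUBB2B, 1.82 for TUBB2A, 1.56 for TUBB6 and -0.21 for TUBB3, and 0.86 for TUBA1B, 0.81 for TUBA1C, 0.66 for TUBB, 0.51 for TUBG1 and 0.38 for TUBA1A. At this dose 8 of 10 members were called for a line difference, where 46.4% of all genes were, and at 150 nM 7 of 10, where 23.3% were, and nothing is read from these counts either. The 2 comparisons share their DMSO libraries.

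These changes altered the make-up of the tubulin mRNA pool. The 4 alpha members held 99.9% ± 0.0134 (SD, n = 3) of the TPM of the 10 alpha genes in the tables with DMSO in OCI-Ly1, and the 5 beta members 79.1% ± 0.543 of that of the 9 beta genes. In TMD8 these shares were 99.6% ± 0.0444 and 82.4% ± 0.634. TUBB4B, a beta gene outside the list, held most of the remainder, at 20.3% ± 0.524 in OCI-Ly1 and 16.0% ± 0.582 in TMD8.

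In OCI-Ly1 the share of TUBB in the beta TPM was 75.2% ± 0.448 with DMSO, 76.4% ± 0.792 with 150 nM and 72.01% ± 0.480 with 500 nM. The share of TUBB2A went from 1.64% ± 0.0183 to 4.94% ± 0.220, that of TUBB3 from 2.14% ± 0.0626 to 3.34% ± 0.217 and that of TUBB6 from 0.123% ± 0.0152 to 0.362% ± 0.0341. Each of these 500 nM groups lay outside the DMSO range. TUBB3 thus took a larger share in OCI-Ly1 at an almost level CPM.

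In TMD8 the share of TUBB was 63.2% ± 0.686 with DMSO, 59.6% ± 0.389 with 150 nM and 55.4% ± 0.498 with 500 nM. TUBB6 went from 15.4% ± 0.277 to 18.7% ± 0.438, although its CPM was lower, and TUBB3 from 0.549% ± 0.00921 to 1.49% ± 0.165. The TUBB4B share was 18.7% ± 0.209 at 500 nM, above its DMSO level. Shares do not depend on how libraries are scaled to each other.

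In the alpha pool, TUBA1B held 83.2% ± 0.140 with DMSO in OCI-Ly1 and 81.2% ± 0.194 with 500 nM, and 79.1% ± 0.0802 and 76.9% ± 0.379 in TMD8. TUBA1A went from 8.02% ± 0.143 to 10.7% ± 0.174 in OCI-Ly1, and in TMD8 from 2.98% ± 0.0871 to 5.41% ± 0.309. TUBA1C went from 6.24% ± 0.227 to 4.995% ± 0.165 and from 13.5% ± 0.0923 to 10.9% ± 0.317.

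The alpha to beta ratio of summed TPM differed between the lines and moved with dose in TMD8. In OCI-Ly1 it was 2.10, 2.03 and 2.08 with DMSO and 2.005, 2.04 and 2.05 with 500 nM, so the groups overlapped. In TMD8 it was 0.900, 0.884 and 0.882 with DMSO, 0.796, 0.778 and 0.750 with 150 nM and 0.700, 0.701 and 0.695 with 500 nM, with no overlap between groups.

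**Figure D4:**
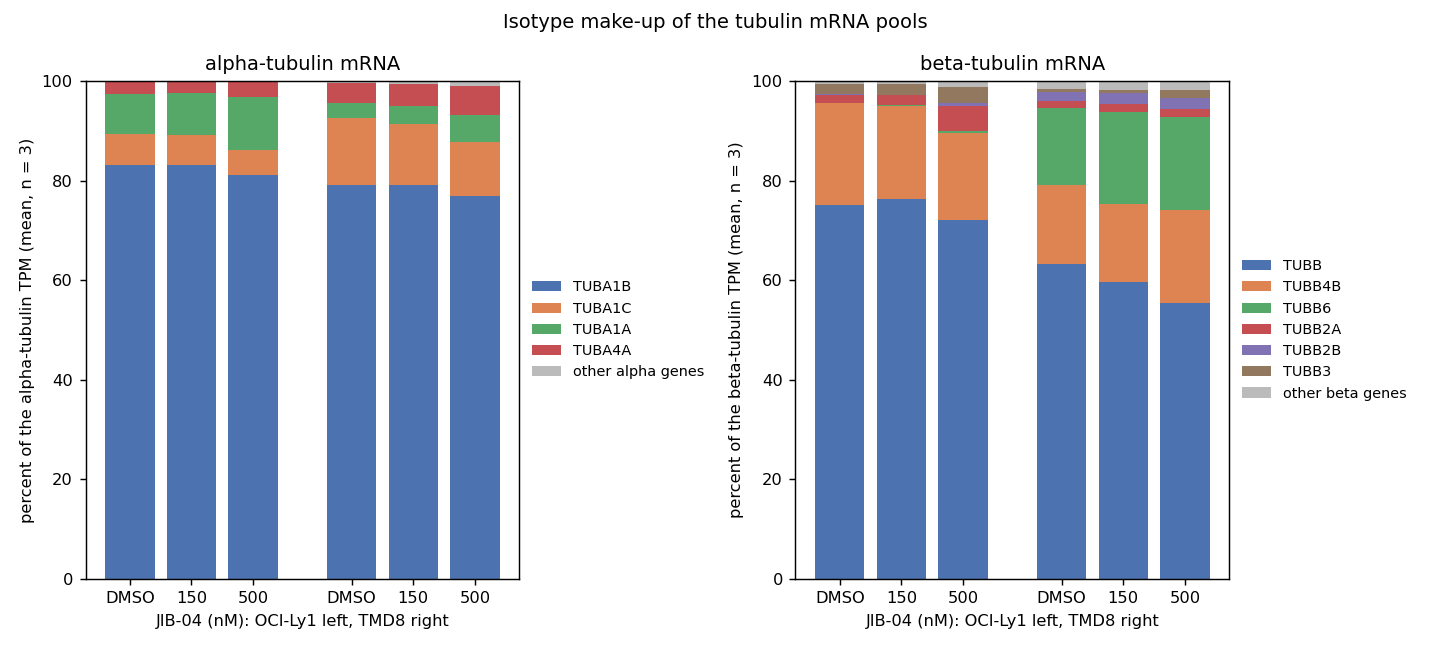
Mean share (percent, n = 3 libraries) of each gene in the summed TPM of the alpha genes (left panel) and the beta genes (right panel), for DMSO, 150 nM and 500 nM in OCI-Ly1 (left 3 bars) and TMD8 (right 3 bars). TUBB6 fills 15.4% of the beta bar in TMD8 with DMSO and 0.123% in OCI-Ly1, and the TUBB block shrinks from 63.2% to 55.4% in TMD8.

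Genes with the pattern most like that of 2 members were taken by Pearson's r of log2 CPM over the 9 libraries of each line, among 9949 genes, using the smaller r of both lines. The 9 libraries fall into 3 dose groups, so r mainly follows the order of the groups. For TUBA1C, the member with the lowest mean change, these were HIST1H2BO (r = 0.998 and 0.997) and the near-identical pair HIST2H2AA3 and HIST2H2AA4 (r = 0.997 in both lines), genes of replication-dependent core histones. For TUBB3, the member with the highest mean change among those at 5 CPM or more in both lines, they were PFKP (0.853 and 0.826), a phosphofructokinase, DNAJB1 (0.820 and 0.925), an HSP40 co-chaperone, and PPP1R21 (0.853 and 0.813).

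Promoter sequences are shown for TUBB2A and TUBB2B, which went in opposite directions in the 2 lines, and for TUBA1C, the lowest, as the 250 bases before the annotated start in RefSeq on GRCh38.p14. Capitals mark matches to 4 motifs searched on both strands, which were picked after the responses were known: the cAMP response element TGACGTCA, the CCAAT box CCAAT, the TATA box TATAAA and the cell-cycle homology region TTTGAA. For TUBA1C, 1 of 3 listed starts is shown.
TUBB2A (chr6:3157545-3157794, minus strand): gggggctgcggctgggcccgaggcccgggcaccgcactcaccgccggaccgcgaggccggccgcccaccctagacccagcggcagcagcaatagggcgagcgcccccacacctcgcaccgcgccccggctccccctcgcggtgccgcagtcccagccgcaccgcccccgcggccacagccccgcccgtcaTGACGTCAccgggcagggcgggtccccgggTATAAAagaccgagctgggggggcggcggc
TUBB2B (chr6:3227654-3227903, minus strand): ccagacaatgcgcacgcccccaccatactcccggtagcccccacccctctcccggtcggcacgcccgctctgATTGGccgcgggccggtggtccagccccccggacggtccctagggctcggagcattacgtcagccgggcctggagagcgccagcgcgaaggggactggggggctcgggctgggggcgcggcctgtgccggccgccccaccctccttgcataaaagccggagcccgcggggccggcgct
TUBA1C (chr12:49264832-49265081, plus strand): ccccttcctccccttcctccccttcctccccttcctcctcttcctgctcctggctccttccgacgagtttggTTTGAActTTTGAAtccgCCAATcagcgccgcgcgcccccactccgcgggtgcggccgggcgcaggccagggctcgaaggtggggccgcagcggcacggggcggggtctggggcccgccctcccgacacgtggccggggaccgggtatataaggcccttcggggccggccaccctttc

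Over windows of 300 bases, from 250 before to 50 after each start, the TUBB2A window held the exact letters of the cAMP response element and the TATA box. Of 34943 windows, 1.84% and 11.57% held these letters, and no window of the other 9 members did. Near variants of the motifs were not searched, so a window without a match may still hold a variant. All 3 TUBA1C windows held the cell-cycle homology region, against 15.2% of all windows and no other member. The CCAAT box was in 34.65% of windows and in at least 1 window of TUBA1A, TUBA1C, TUBB, TUBB2B, TUBB3, TUBB6 and TUBG1. A match is a description of letters and was not tested as a site.

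Of the 13 other tubulin genes, 10 were tested in OCI-Ly1 and 9 in TMD8 with edgeR. At 500 nM, 3 rose and 4 fell in each line, with a median log2 fold change of 0.10 in OCI-Ly1 (-0.13 on median-centred TPM) and -0.38 in TMD8, beside -0.00 and 0.04 for all genes. TUBB4B, the abundant beta gene named above, was at 421, 399 and 380 CPM with DMSO in OCI-Ly1 and 206, 210 and 210 with 500 nM, and fell by 0.94 ± 0.05 on the log2 scale (adjusted p = 6.13e-11). TMD8 had TUBB4B at 281, 277 and 289 CPM, then 208, 205 and 193, then 196, 194 and 194, and fell by 0.54 ± 0.04 (adjusted p = 1.21e-08). Its line difference of -0.37 ± 0.07 passed the test (adjusted p = 0.000199).

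TUBE1, epsilon-tubulin of the centriole, rose in both lines, from a mean of 14.2 to 27.6 CPM in OCI-Ly1 (0.94 ± 0.12, adjusted p = 4.20e-06, edgeR) and from 4.47 to 7.32 in TMD8 (0.72 ± 0.15, adjusted p = 0.000398). TUBB1, the beta-tubulin of platelets, fell in both, by 0.53 ± 0.14 (adjusted p = 0.00370) and 0.72 ± 0.13 (adjusted p = 8.63e-05). TUBG2, the second gamma-tubulin, rose by 0.57 in both lines, though its TPM in TMD8 overlapped, at 4.37, 3.09 and 3.74 with DMSO and 3.94, 4.84 and 3.88 with 500 nM. TUBB4A, another beta gene, rose in OCI-Ly1 by 0.49 ± 0.12 (adjusted p = 0.00203, edgeR) and fell in TMD8 by 0.52 ± 0.07 (adjusted p = 1.91e-06). Its line difference of 1.03 ± 0.14 passed the test (adjusted p = 9.11e-07). It thus went the same ways as TUBB2A, TUBB2B and TUBB6.

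Genes that build the spindle out of tubulin were lower nearly throughout. Of 25 spindle motors and spindle-assembly genes, 22 fell and 1 rose at 500 nM in OCI-Ly1 (15 and 1 on log2(TPM + 1)), and 24 fell and 1 rose in TMD8. The medians were -0.52 and -0.91. KIF20A, a kinesin of late mitosis, fell by 1.25 ± 0.06 in OCI-Ly1 (adjusted p = 9.96e-12, edgeR) and 2.03 ± 0.10 in TMD8 (adjusted p = 1.57e-11). NUMA1, a spindle-pole protein, was the gene that rose, by 0.34 ± 0.06 and 0.33 ± 0.05, although in TMD8 it was at -0.05 on log2(TPM + 1). At 150 nM in TMD8 the list already had 24 lower and 1 higher, with a median of -0.54.

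Genes that fold tubulin moved the same way. Of 21 genes for the CCT chaperonin, prefoldin and tubulin cofactors, 12 fell and 3 rose in OCI-Ly1 at 500 nM (10 and 5 on log2(TPM + 1)). In TMD8, 18 fell and 2 rose at 500 nM, and the medians of the lines were -0.23 and -0.57. CCT2, a chaperonin subunit, fell by 0.77 ± 0.04 in OCI-Ly1 (adjusted p = 1.15e-10, edgeR) and 1.02 ± 0.07 in TMD8, and CCT5 by 0.41 ± 0.05 and 1.10 ± 0.06. TBCC, the cofactor that triggers GTP hydrolysis on the new dimer, rose in both, by 0.48 ± 0.07 and 0.67 ± 0.06.

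The autoregulation genes, 11 in all, did not share 1 direction. In OCI-Ly1, 3 rose and 2 fell (median 0.12), with 6 and 0 on log2(TPM + 1) and 1 and 4 when median-centred. In TMD8, 2 rose and 8 fell (median -0.20), with 0 and 9 on log2(TPM + 1). TTC5, which reads the motif printed above, was not called in OCI-Ly1 (-0.16 ± 0.08, adjusted p = 0.10004, edgeR) and fell in TMD8 by 0.30 ± 0.09 (adjusted p = 0.00918). SCAPER rose in TMD8 by 0.38 ± 0.07 (adjusted p = 7.97e-05), where it was 0.00 on log2(TPM + 1), and was at 0.20 ± 0.09 in OCI-Ly1 (adjusted p = 0.0653). Of the CCR4-NOT subunits, CNOT7, a deadenylase, fell in TMD8 by 0.54 ± 0.08 and was at 0.12 ± 0.07 in OCI-Ly1, a line difference of 0.70 ± 0.11 (adjusted p = 1.07e-05). CNOT3 rose by 0.37 ± 0.08 and 0.16 ± 0.05, the latter at -0.22 on log2(TPM + 1) and not called without TMD8 DMSO replicate 3 (0.13) or TMD8 500 nM replicate 3 (0.12), and CNOT11 fell by 0.29 ± 0.06 and 0.20 ± 0.06.

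Enzymes that modify tubulin rose more often than they fell in OCI-Ly1. Of 21 tested, 12 rose and 3 fell there (median 0.37), against 8 and 5 when median-centred. Of 19 in TMD8, 5 rose and 6 fell (median 0.05), against 0 and 10 on log2(TPM + 1), where the median was -0.30. TTLL1, a polyglutamylase, rose in OCI-Ly1 by 1.16 ± 0.18 (adjusted p = 3.77e-05, edgeR) and was at 0.60 ± 0.26 in TMD8 (adjusted p = 0.0561). TTLL11, another polyglutamylase, rose by 0.73 ± 0.18 and 0.52 ± 0.15. TTLL12 fell by 0.25 ± 0.07 and 1.02 ± 0.06, and TTLL4, a glutamylase, by 0.32 ± 0.06 and 0.56 ± 0.07.

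Proteins that nucleate and branch microtubules were mixed. Of 12 genes of the gamma-tubulin ring complex and its anchors, 5 rose and 4 fell in OCI-Ly1 (6 and 1 on log2(TPM + 1), 3 and 5 when median-centred) and 3 rose and 7 fell in TMD8 (2 and 9 on log2(TPM + 1)), with medians of 0.05 (-0.04 on median-centred TPM) and -0.17. PCNT, the scaffold pericentrin, rose by 0.88 ± 0.05 in OCI-Ly1 (adjusted p = 1.19e-10, edgeR) and 0.75 ± 0.06 in TMD8. MZT1, a small ring-complex subunit, fell in TMD8 by 0.79 ± 0.14 and was at 0.09 ± 0.09 in OCI-Ly1, and TUBGCP5 fell in OCI-Ly1 by 0.41 ± 0.06 and was at -0.11 ± 0.05 in TMD8. Of 8 augmin genes, which branch microtubules in the spindle, 2 rose and 3 fell in OCI-Ly1 (2 and 0 on log2(TPM + 1), 1 and 6 when median-centred) and 1 rose and 7 fell in TMD8 (0 and 7), with medians of -0.10 (0.04 on log2(TPM + 1)) and -0.37. HAUS5 rose in both lines, by 0.47 ± 0.08 and 0.55 ± 0.06, HAUS4 fell by 0.22 ± 0.06 and 0.38 ± 0.07, and HAUS7 fell in TMD8 by 0.76 ± 0.09.

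Of 24 microtubule-associated and severing proteins, 6 rose and 7 fell in OCI-Ly1 (8 and 4 on log2(TPM + 1)) and 7 rose and 11 fell in TMD8 (3 and 14), with medians of -0.03 (0.08 on log2(TPM + 1)) and -0.10. STMN1, stathmin, which sequesters dimers, fell by 0.28 ± 0.04 and 0.60 ± 0.05. CKAP5, a microtubule polymerase, fell by 0.34 ± 0.04 and 0.71 ± 0.06. The structural proteins MAP1A and MAP1B went opposite ways in the 2 lines. MAP1B rose from a mean of 3.61 to 17.1 CPM in OCI-Ly1 (2.27 ± 0.16, adjusted p = 2.76e-09, edgeR) and fell from 191 to 159 in TMD8 (-0.27 ± 0.05, adjusted p = 0.000138), while MAP1A fell from 172 to 120 in OCI-Ly1 (-0.52 ± 0.06, adjusted p = 4.34e-07) and rose from 6.95 to 29.9 in TMD8 (2.11 ± 0.10, adjusted p = 8.01e-12). The rise of each was in the line with its lower DMSO level, as were the higher levels of TUBB2B and TUBB6 but not that of TUBB2A. CLIP2, a plus-end linker protein, rose from a mean of 1.25 to 6.24 CPM in TMD8 (2.32 ± 0.19, adjusted p = 1.12e-08) and, from 0 to 6 counts per library with DMSO, to 108 to 130 with 500 nM in OCI-Ly1.

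Of the transport motors, 11 of 28 rose and 5 fell in OCI-Ly1 (4 and 7 when median-centred) and 4 of 27 rose and 13 fell in TMD8 (9 and 8 with library size alone), with medians of 0.10 (-0.00 on median-centred TPM) and -0.11. KIF1B, a kinesin, rose by 1.47 ± 0.08 in OCI-Ly1 (adjusted p = 5.32e-11, edgeR) and fell by 0.20 ± 0.05 in TMD8. KIF1C fell by 0.44 ± 0.06 in OCI-Ly1 and was called higher in TMD8 at 0.13 ± 0.05, a call lost without TMD8 DMSO replicate 1 or without TMD8 500 nM replicate 1 or 3 and reversed on log2(TPM + 1) to -0.22. KLC4, a kinesin light chain, rose in both lines (0.83 ± 0.09 and 1.22 ± 0.13), and DYNLL1, a dynein light chain, fell in TMD8 by 0.73 ± 0.07.

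The actin list, a separate filament system, was also lower. Of 18 genes, 15 fell and 2 rose in OCI-Ly1 (9 and 2 on log2(TPM + 1)) and 18 fell and 0 rose in TMD8, with medians of -0.29 and -0.54. ACTB, beta-actin, fell by 0.64 ± 0.04 in OCI-Ly1 (adjusted p = 7.86e-11, edgeR) and 1.05 ± 0.06 in TMD8, and CORO1A, coronin of blood cells, by 0.83 ± 0.07 and 0.88 ± 0.05. MYH9, a non-muscle myosin, rose in OCI-Ly1 by 0.14 ± 0.05 (adjusted p = 0.0388), a call that 5 of the 6 fits leaving out a library did not give, and fell in TMD8 by 0.18 ± 0.05.

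Over all lists, 48 of 178 tested genes rose and 77 fell at 500 nM in OCI-Ly1, and 28 of 174 rose and 116 fell in TMD8. Of all genes tested, 27.7% rose and 25.9% fell in OCI-Ly1 and 29.9% rose and 30.7% fell in TMD8. On log2(TPM + 1) with limma the list genes that rose and fell were 65 and 46 for OCI-Ly1, against 9 and 136 for TMD8. In OCI-Ly1 they were 60 and 59 with library size alone and 30 and 94 on median-centred TPM, so the balance of rises and falls depends on scaling. In the spindle, folding and actin lists of OCI-Ly1, falls outnumbered rises on each of these scales, though fewer falls were called on log2(TPM + 1). At 150 nM, 15 rose and 105 fell in TMD8, and in OCI-Ly1 0 of 178 were called by edgeR, 25 had an unadjusted p under 0.05, DESeq2 called 1 and limma on log2(TPM + 1) called 0.

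**Figure D5:**
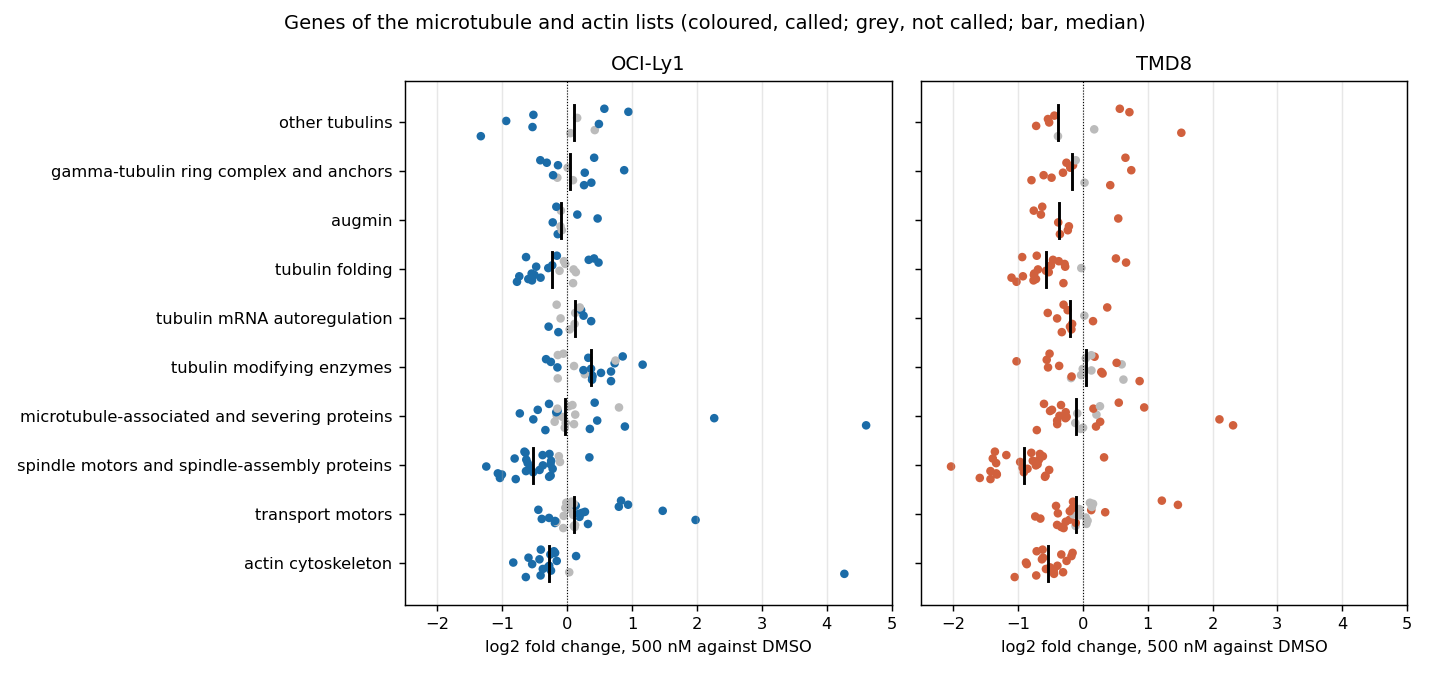
Log2 fold change at 500 nM against DMSO of each tested gene in the 10 lists, OCI-Ly1 left and TMD8 right; coloured points were called by edgeR, grey were not, and the black bar is the list median. The spindle list lies lowest in both lines, with medians of -0.52 and -0.91, and tubulin modifying enzymes lie highest in OCI-Ly1 at 0.37.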

How the data were processed

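RNA was measured in 18 libraries, 3 in each of 6 groups, assigned from the sample labels. The authors deposited estimated counts per gene and TPM per gene, for 23686 genes, and TPM summed to 1000000 in each library. Per the submitters' processing notes the tools were kallisto 0.46.0, R 4.3.1 and DESeq2 1.40.2 with the build hg19. The deposited counts and TPM carry the name of kallisto, and the roles of R and DESeq2 are not given in the sources used here. Estimated counts were rounded to whole numbers and filtered with edgeR's filterByExpr, which left 15638 genes in OCI-Ly1, 15363 in TMD8 and 16604 in the fit of all 18 libraries. Each line was fitted with edgeR 4.0.16 (quasi-likelihood test, TMM scaling), and untreated lines and differences between lines in the fit of 18. Adjusted p-values are Benjamini-Hochberg over all genes of a contrast, with a threshold of 0.05. Alternatives used limma 3.58.1 on log2(TPM + 1) and log2(TPM + 0.1), the former also centred on each library's median, DESeq2 1.42.0, DESeq2 size factors or library size alone in edgeR, no filter, a replicate block, and leaving out each library, in R 4.3.3 and Python 3.11.15. The scripts were tested on simulated data.

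The members, gene lists and promoter motifs were chosen with earlier results of these data known. Named were all 10 members, TUBB4B, TTC5, STMN1 and, per list and line, the called gene with the largest rise and fall at 500 nM against DMSO, where the higher group averaged 5 CPM or above and every library compared had more than 3 counts. TUBG2 and TUBB4A are outside that rule and were chosen after their values were seen. Of the 186 list genes, 1 matched through an older symbol. Replicate pairs of a group differed by more than counting noise (chi-square per degree of freedom 1.65 to 11.54 over 18 pairs). The sequence tables are on GRCh38, not the build of the deposited values, so they were used by symbol only.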

Additional observations from a re-analysis of the deposited data

Results flagged for a closer look

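These genes were flagged because their 500 nM responses differed between the lines, given as OCI-Ly1 minus TMD8 on the log2 scale. Among the members, which were chosen with these responses in view, the differences are a description. TUBB2B was at 4.97, TUBB2A at 1.45, TUBB6 at 1.35 and TUBB3 at -0.73, the last being -0.21 on log2(TPM + 1). Among the other genes the difference itself passed edgeR's test over all genes, as it did for 46.4% of all genes tested. Of 177 list genes tested, 99 were called higher and 10 lower. Most of the genes named here were picked as the largest rise or fall of a list within a line, from the same responses.

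The response was higher in OCI-Ly1 for MAP1B (2.58), KIF1B (1.70) and CLIP2, and lower for MAP1A (-2.60), KIF1C (-0.54), TUBB4B (-0.37) and TUBGCP5 (-0.27). The CLIP2 value, 2.30, rests on 0 to 6 counts per OCI-Ly1 DMSO library and is not a precise size. Spindle and nucleation genes with a higher response in OCI-Ly1 were KIF20A (0.82), MZT1 (0.91), HAUS7 (0.69) and CKAP5 (0.41). Folding and autoregulation genes were CCT5 (0.72), CCT2 (0.28), CNOT7 (0.70) and CNOT3 (0.24). The others were TTLL12 (0.80), DYNLL1 (0.71), ACTB (0.44), STMN1 (0.35), MYH9 (0.34) and TTLL4 (0.26).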

How the results depend on the processing

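The number of companion genes called stayed within 1.5 times of its value under every alternative run, except at 150 nM in OCI-Ly1, where it was 0, and 2 with no filter, 1 with DESeq2, 1 with the replicate block and 0 to 3 when each library was left out. Whether replicate numbers paired the samples was not settled. Same-numbered libraries deviated together with r from -0.0462 to 0.146 (OCI-Ly1) and -0.0545 to 0.141 (TMD8). Libraries of different numbers had r from -0.173 to 0.0419 (OCI-Ly1) and -0.19 to 0.105 (TMD8). The highest r of each line was between same-numbered DMSO and 150 nM libraries. The replicate block gave 128 called companion genes against 125 at 500 nM in OCI-Ly1 and 145 against 144 in TMD8. The members called between untreated lines numbered 9, and 8 to 10 over the alternatives. On log2(TPM + 1) and log2(TPM + 0.1), directions were reversed at 500 nM in TMD8 for CNOT3 (-0.22 and -0.22), KIF1C (-0.22 and -0.24) and NUMA1 (-0.046 and -0.048). TUBA1A between the doses in TMD8, 0.19, was -0.085 and -0.090 on these scales and -0.47 with the 3 TUBA1 rows summed, and its line difference at 500 nM was 0.38 and 0.41. TUBG1 between untreated lines was 0.91 and 0.93, and 0.19 when median-centred. The cause of these reversals was not tested. The median of all genes at 500 nM moved to 0.10 in OCI-Ly1 and -0.22 in TMD8 on log2(TPM + 1), to -0.12 in OCI-Ly1 when median-centred and to 0.13 in TMD8 with library size alone, and between untreated lines to 0.61. TUBB2B at 500 nM in OCI-Ly1 ranged from 4.39 to 4.66 when each library was left out. Its 6.22 to 11.8 estimated counts per DMSO library limit the precision of that value.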

Other observations

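The summed level of the 10 tubulin genes was a mean of 4926 TPM with DMSO and 3255 with 500 nM in OCI-Ly1, and 1492 and 594 in TMD8. Within the whole table, TUBA1B with DMSO ranked 34 of 18714 genes above 0 TPM in OCI-Ly1 and 126 of 19012 in TMD8. TUBB6 ranked 11742 in OCI-Ly1 and 439 in TMD8, and TUBB2B 15455 and 4008.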
